A study of Mus musculus with 2 samples.

Results

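The genes described here are 10 regulators of cell division: the cyclins Ccna1, Ccna2, Ccnb1, Ccnb2 and Ccnb3, the cyclin-dependent kinases Cdk1 and Cdk2, and the phosphatases Cdc25a, Cdc25b and Cdc25c. They were taken by symbol from 21911 protein-coding genes of the GENCODE M21 annotation, and all 10 were found. Cyclins are the regulatory subunits of cyclin-dependent kinases, and CDC25 phosphatases remove the inhibitory phosphates that hold these kinases inactive. Each family has members used in ordinary mitotic division and members with a known role in the germ line. Here 4 genes were taken as the meiotic paralogs: Ccna1, whose loss in male mice stops spermatocytes before the first meiotic division, Ccnb3, a cyclin made early in meiotic prophase, Cdk2, which mice need for meiosis but not for most mitoses, and Cdc25c, which in testis is made most from pachytene onward. The other 6 were taken as the mitotic paralogs, although Cdk1 and the B cyclins also drive the meiotic divisions. Cdc25b, among these 6, also has a meiotic role, in oocytes. This split rests on textbook knowledge, but it was made with earlier results of these data known.

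The assay was DNase-seq, which reads out the ends left where DNase I has cut accessible chromatin, on testis tissue taken whole from B6CASTF1/J males aged 14 days, a first-generation cross of C57BL/6 and a castaneus-derived strain. There is 1 group of 2 libraries, replicate 1 (3 males, per its label) and replicate 2 (number of animals not given). The labels call them biological replicates but give both 1 donor entry, and part of their spread may be technical. No treatment or genotype is compared, and no test between groups was possible. At this age the tubules hold spermatogonia, Sertoli cells and spermatocytes in meiotic prophase. There were 101172 listed peaks for replicate 1 and 117359 for replicate 2, with median values of 0.543 and 0.506. The value of a peak is the authors' own signal column, and its scaling and the depth in reads are unknown from these files. Of the fixed markers, 7 of 7 for germ cells, 6 of 6 for Sertoli cells, 4 of 5 for Leydig cells and 3 of 3 for peritubular myoid cells had a promoter peak in both libraries, against 1 of 3 for leukocytes and 1 of 3 for erythroid cells. In whole tissue, fewer cells of a type with an open promoter and a less open promoter in each cell cannot be told apart.

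In each library all 10 genes showed a promoter peak, that is, a listed peak within 1000 bp of an annotated transcription start. Among all protein-coding genes 68.7% did so. The promoter value, the highest value among those peaks, spanned a wide range, from 15.1 ± 1.6 at Cdc25a to 1.42 ± 0.14 at Ccna1 (SD, n = 2). Its median over the 10 genes was 7.58 in replicate 1 and 7.26 in replicate 2, beside 1.42 and 1.30 over all genes and 4.04 and 3.68 over the 15057 genes open in both libraries. The values fell into a high set of 7 genes at 6.74 or more in each library and a low set of Cdc25b, Ccnb3 and Ccna1 at 1.94 or less. The low set held 2 of the 4 meiotic and 1 of the 6 mitotic paralogs.

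**Figure D1:**
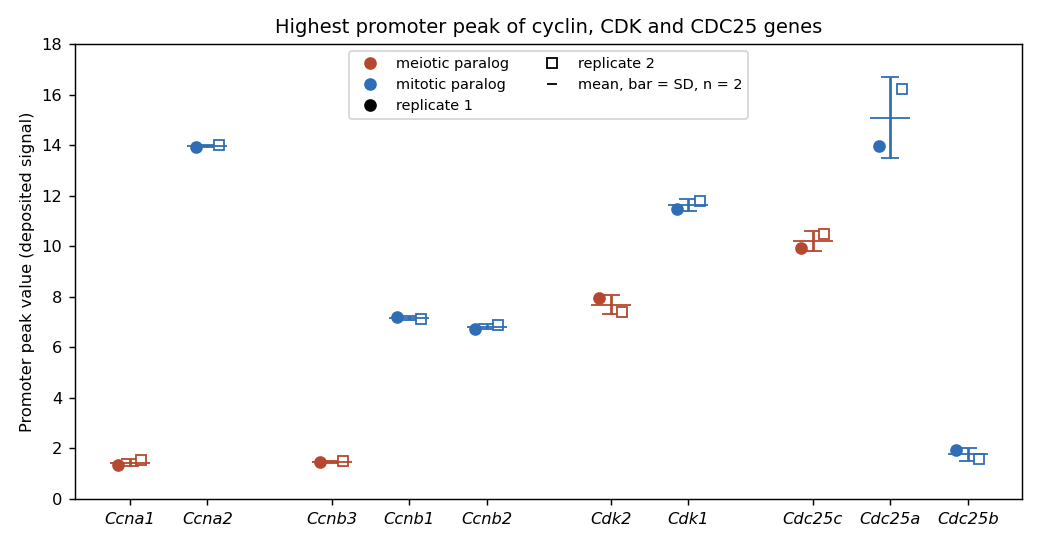
Highest promoter peak value (deposited signal, linear axis from 0) of each gene, grouped by family with the meiotic paralog on the left. Filled circles are replicate 1, open squares replicate 2, and bars the mean with SD (n = 2); Ccna1, Ccnb3 and Cdc25b lie at 1.94 or below and the other genes at 6.74 or above.

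Among the A-type cyclins the difference was the widest. Ccna1 had promoter values of 1.33 in replicate 1 and 1.52 in replicate 2, whereas Ccna2, the cyclin of DNA synthesis and entry into mitosis in somatic cells, had 13.9 and 14.0. The libraries of the 2 genes do not overlap. The log2 ratio of Ccna1 over Ccna2 was -3.30 ± 0.13 (SD, n = 2), so that Ccna2 had 9.82 times the value of Ccna1. Among all protein-coding genes, Ccna1 was at percentiles 49.1 and 52.0 and Ccna2 at 94.6 and 94.8. The site of the peak also differed. The peak of Ccna1 lay at 241 to 460 past its 5' end in replicate 1 (chromosome 3, 55055041 to 55055260) and at 241 to 440 in replicate 2. There it overlaps the last bases of the first exon of the longer transcripts and lies mostly in their first intron. Its far end borders a group of 3 annotated starts at positions 446, 459 and 464, of which the peak of replicate 1 covers the first 2 and that of replicate 2 none. The peak of Ccna2 lay across the 5' end of the gene, from position -70 to 169 in replicate 1 (chromosome 3, 36571981 to 36572220). Upstream of the 5' end itself Ccna1 had only a weak peak, with 0.253 in replicate 1 and 0.257 in replicate 2.

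The stretch of Ccna1 before these inner starts is shown because it holds the open site of the gene away from its annotated 5' end. It covers chr3:55055056-55055205 on the minus strand (GRCm38.p6, the same build as mm10; RefSeq), with bases under footprints of both libraries in capitals. Footprints are short stretches protected from cutting, as listed by the authors. Letters here and below are those of the reference build, and the castaneus-derived alleles of these animals were not examined.
Ccna1: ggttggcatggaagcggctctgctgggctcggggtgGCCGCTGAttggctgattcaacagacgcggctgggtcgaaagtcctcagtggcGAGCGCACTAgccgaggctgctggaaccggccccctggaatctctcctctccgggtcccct
Only 18 of its 150 bases were in footprints of both libraries, in 2 stretches.

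Among the B-type cyclins, Ccnb3 had values of 1.45 in replicate 1 and 1.50 in replicate 2. Ccnb1, which with Cdk1 forms the kinase that starts cell division, had 7.20 and 7.10. Ccnb2, a related partner of Cdk1, had 6.74 and 6.88. All values of Ccnb3 lay below all of its relatives. The log2 ratio was -2.28 ± 0.053 for Ccnb3 over Ccnb1 and -2.21 ± 0.017 for Ccnb3 over Ccnb2 (SD, n = 2 each), or values 4.85 and 4.62 times as high at the mitotic genes. The values of Ccnb1 and Ccnb2 lay close together without overlapping. Ccnb3 is the only one of the 10 genes on the X chromosome, which males carry once. On that chromosome 60.3% of genes were open in both libraries, and these had a median promoter value of 1.43 in replicate 1 and 1.53 in replicate 2, against 4.22 and 3.83 on autosomes. Among these 572 X-linked genes Ccnb3 stood at percentiles 50.8 and 49.7, in the middle of its chromosome. The part of the X chromosome in its difference from Ccnb1 and Ccnb2 was not tested.

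The highest peaks of the B cyclins all lay across their 5' ends, and those of Ccnb3 (chromosome X, 7041561 to 7041740) and Ccnb1 (chromosome 13, 100786481 to 100786680) had the same first and last base in both libraries. Ccnb3 differed from the others by a second peak upstream, from -421 to -242, with 0.984 in replicate 1 and 1.13 in replicate 2, close in value to its main peak. A further, weak peak lay in its first intron, with 0.253 and 0.155. Ccnb2 had a single promoter peak in each library. Ccnb1 had an additional one of 0.310 in replicate 2 alone, where the track of the false discovery rate (FDR) listed nothing in replicate 1.

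Of the kinases, Cdk2 had values of 7.96 in replicate 1 and 7.41 in replicate 2, and Cdk1, the kinase without which cells do not divide, had 11.5 and 11.8. The log2 ratio of Cdk2 over Cdk1 was -0.60 ± 0.10 (SD, n = 2), a value 1.51 times as high at Cdk1, and the libraries of the genes do not overlap. The highest Cdk1 peak had the same limits in both libraries (chromosome 10, 69352881 to 69353100), and a second one in its first intron, at 498 to 677 past the 5' end, had 2.31 and 2.02. Cdk2 (chromosome 10, 128704921 to 128705120 in replicate 1) shared its highest peak with the promoter window of Pmel, a melanosome gene beside it. With shared peaks left out Cdk2 had none. Replicate 2 also listed a separate Cdk2 peak of 2.39 at 231 to 410 past the 5' end. Replicate 1 listed no peak there, although its FDR track reached 1.02e-21 under the same bases. This region was therefore cut above background in both libraries, and the lists differ in whether it was given as a peak.

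The CDC25 family alone held a pair with the gene taken as meiotic higher, Cdc25c over Cdc25b. That direction rests on taking Cdc25b as the mitotic gene. Cdc25c had 9.92 in replicate 1 and 10.5 in replicate 2. Cdc25a, which acts at entry into DNA synthesis and into mitosis, had 14.0 and 16.2, and Cdc25b, which female mice need for oocytes to resume meiosis, had 1.94 and 1.59. None of these genes' libraries overlap. The log2 ratio was -0.56 ± 0.097 for Cdc25c over Cdc25a and 2.54 ± 0.26 for Cdc25c over Cdc25b (SD, n = 2 each), the last a value 5.82 times as high at Cdc25c. The Cdc25c peak lay wholly upstream of its 5' end, from -207 to -8 in both libraries (chromosome 18, 34751541 to 34751740). The Cdc25a peak was also upstream, from -258 to -99 in replicate 1 and to 1 in replicate 2 (chromosome 9, from 109875321). Cdc25b shared its only promoter peak (chromosome 2, 131186801 to 131187000 in replicate 1) with Spef1, a gene of cilia and sperm tails, and had none with shared peaks left out.

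Of the 6 pairs, 1 had the meiotic gene higher in both libraries and 5 had it lower, and in none did the values overlap. This count held in all alternatives run, but with shared peaks left out Cdk2 and Cdc25b had values of 0. The pairs Cdk2 over Cdk1 and Cdc25c over Cdc25b then had no ratio, and their direction followed from the 0 alone. Pairs that share Ccnb3 or Cdc25c are not independent of each other. How many pairs drawn from all genes lack such overlap was not computed, so the lack of overlap is not a result about paralogs. Ordered by mean, the genes ran Cdc25a, Ccna2, Cdk1, Cdc25c, Cdk2, Ccnb1, Ccnb2, Cdc25b, Ccnb3 and Ccna1. The values of Cdc25a and Ccna2 overlapped between libraries, as did those of Ccnb3 and Ccna1, and all other neighbours in this order were apart. The median over the 4 meiotic genes was 4.59 ± 0.17 and that over the 6 mitotic genes 9.39 ± 0.090 (SD, n = 2), with Cdc25c and Cdk2 high and Cdc25b low against the order of their classes. Values of different genes come from different sequences, and no source used here says whether the cutting preference of DNase I was corrected.

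**Figure D2:**
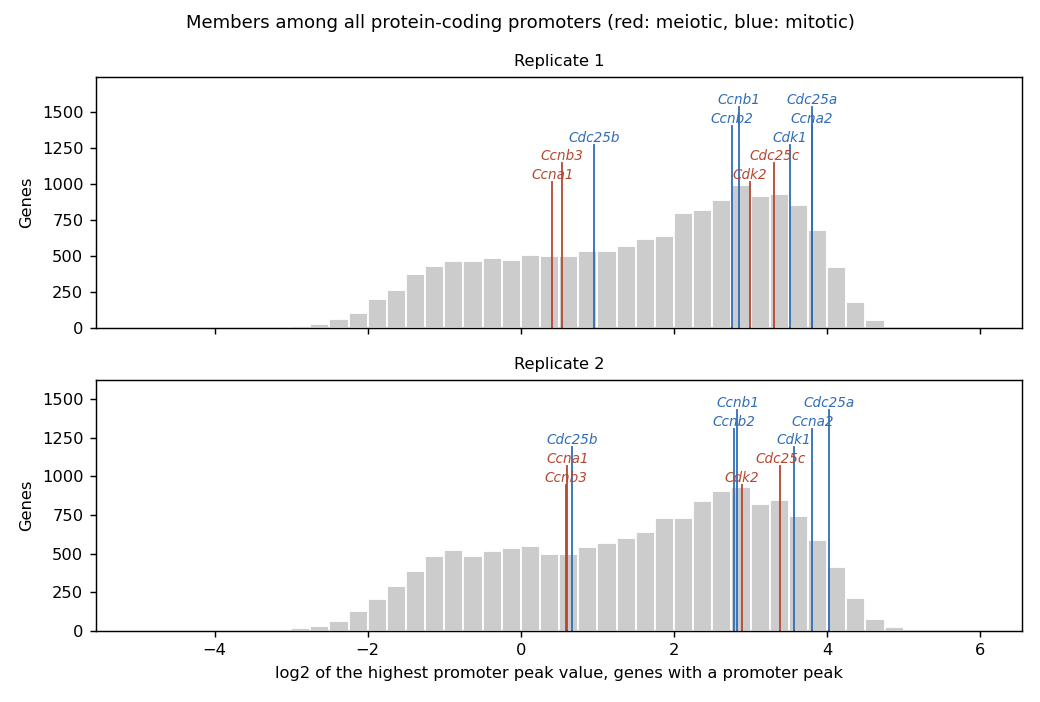
Grey bars count the protein-coding genes with a promoter peak by log2 of their highest promoter value, 1 panel per library; red lines mark meiotic and blue lines mitotic paralogs. In both libraries Ccna1, Ccnb3 and Cdc25b stand in the lower part of the distribution and the other 7 genes in its upper part.

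The libraries agreed closely at these promoters. The log2 ratio of replicate 2 over replicate 1 ran from -0.29 at Cdc25b to 0.22 at Cdc25a, with a median of 0.037 over the 10 genes. Over all open genes the median was -0.074 and the range from the 5th to the 95th percentile was -0.54 to 0.36. The highest peaks overlapped over 61.5% to 100% of their joint length, and 4 of the 10, those of Ccnb1, Ccnb3, Cdk1 and Cdc25c, had identical limits. Each library listed 20 promoter peaks at these genes, of which 17 overlapped one in the other library. The peaks in a single library were weak, at 0.555 or less, apart from the one in Cdk2.

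The annotation gives 54 starts for the 10 genes, of which 33 had a peak within 1000 bp in both libraries and 20 in neither. The remaining start, 2108 bases into Cdk1, had one of 0.555 in replicate 2 alone. Cdc25b had 5 of its 7 starts without a peak and Cdc25a 4 of 7, all of them well inside the gene, whereas each of the 6 starts of Cdk2 had one.

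The FDR track, which lists the FDR of the cut rate wherever it is below 0.05, gave the same direction as the peak values in all 6 pairs. Track and peak values come from the same alignments of each library, so this is not independent support. Within 1000 bp on each side of the 5' end the lowest FDR was 1.47e-30 and 5.13e-34 at Ccna1 in replicates 1 and 2, against 1.01e-259 and 6.30e-272 at Ccna2. At Ccnb3 it was 2.64e-36 and 5.81e-45, against 6.66e-105 and 4.57e-111 at Ccnb1 and 2.75e-88 and 6.70e-93 at Ccnb2. Cdc25c reached 1.02e-148 and 2.12e-107, against 1.15e-243 and 8.11e-250 at Cdc25a and 3.57e-22 and 1.93e-12 at Cdc25b. At Cdk2 it was 1.72e-98 and 2.53e-147, against 2.50e-169 and 1.62e-210 at Cdk1. Of the 2001 bases in the window, Ccna1 had 1019 and 1066 below 0.05, whereas Ccnb2, with a far higher peak, had 611 and 614, the fewest of the 10. Cdc25a (1455 and 1489) and Cdk2 (1369 and 1510) had the most. Below 0.001 the order of Ccna1 and Ccnb2 was the other way round, with 479 and 456 bases at Ccna1 against 549 and 560 at Ccnb2, and Cdc25b had the fewest of the 10 with 444 and 355.

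**Figure D3:**
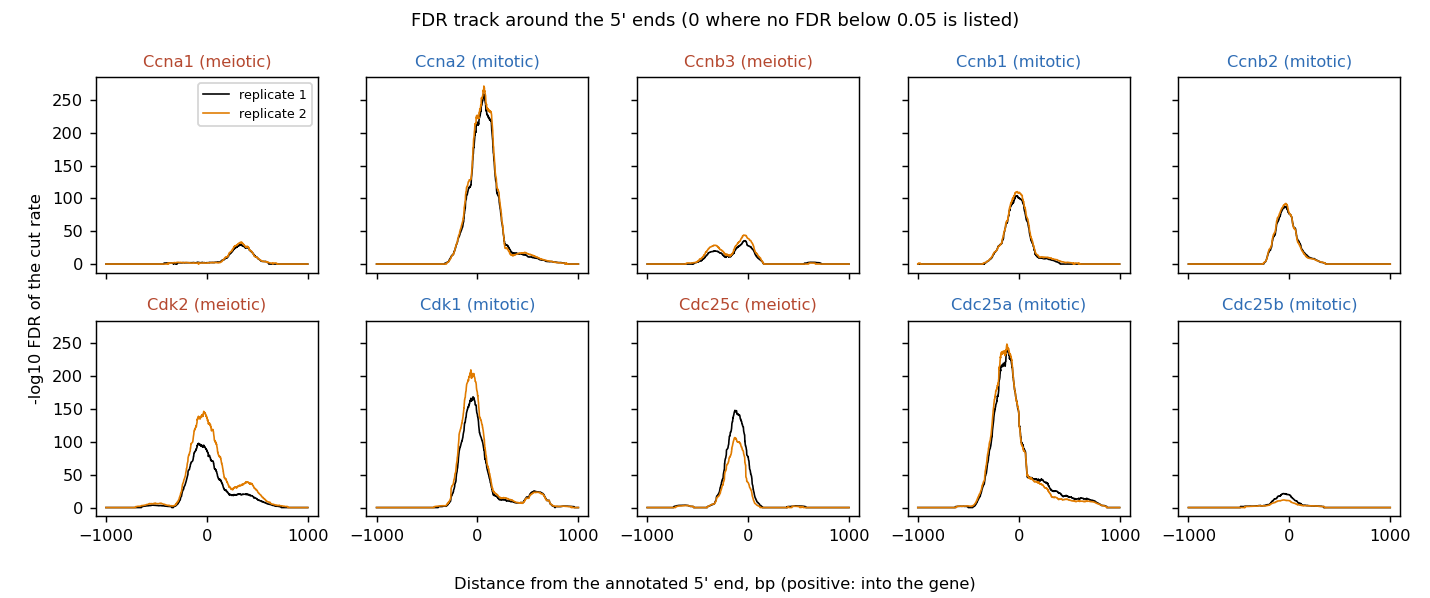
Each panel plots -log10 FDR of the cut rate against distance from the annotated 5' end in bp, in black for replicate 1 and orange for replicate 2, with 0 where no FDR below 0.05 is listed. The curves of Ccna1, Ccnb3 and Cdc25b are low, that of Ccna1 is shifted into the gene, and Ccnb3 shows 2 summits.

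Promoter sequences from RefSeq (GRCm38.p6, 250 bases before and 50 from the start) were matched for 8 of the 10 genes, not for Ccna2 and Cdc25c. Over 16522 protein-coding genes in the same table the median observed over expected CpG was 0.598. Ccna1 had 0.852, Ccnb3 0.948 and Cdc25b 0.625, and the other 5 genes had 0.748 to 0.965. Of the genes with low promoter values, Ccna1 and Ccnb3 thus lay within the range of these 5 strongly open genes, and Cdc25b lay below it. The part of CpG content in the promoter values was not tested.

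The following stretches are shown because they hold footprints of Ccnb3 and of the strongly open mitotic promoters. They lie outside annotated exons, are written 5' to 3' on the strand of the gene, and have bases under footprints of both libraries in capitals. The stretch of Ccnb3 is chrX:7041620-7041769 (minus strand), of Ccnb1 chr13:100786571-100786720 (minus), of Ccnb2 chr9:70421555-70421704 (minus), of Cdk1 chr10:69352939-69353088 (minus) and of Cdc25a chr9:109875429-109875578 (plus), all in GRCm38.p6 from RefSeq.
Ccnb3: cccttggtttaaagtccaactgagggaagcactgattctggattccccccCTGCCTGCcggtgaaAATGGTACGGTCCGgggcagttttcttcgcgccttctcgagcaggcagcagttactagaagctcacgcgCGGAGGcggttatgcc
Ccnb1: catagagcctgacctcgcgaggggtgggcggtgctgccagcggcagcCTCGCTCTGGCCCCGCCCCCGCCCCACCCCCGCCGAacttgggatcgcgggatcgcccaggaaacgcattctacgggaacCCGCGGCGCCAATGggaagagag
Ccnb2: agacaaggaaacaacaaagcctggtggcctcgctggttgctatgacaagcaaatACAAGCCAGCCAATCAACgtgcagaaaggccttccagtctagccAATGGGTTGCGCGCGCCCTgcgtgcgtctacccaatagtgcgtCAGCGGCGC
Cdk1: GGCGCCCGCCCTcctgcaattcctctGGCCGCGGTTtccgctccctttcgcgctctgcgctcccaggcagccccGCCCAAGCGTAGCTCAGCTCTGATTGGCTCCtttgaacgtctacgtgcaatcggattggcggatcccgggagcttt
Cdc25a: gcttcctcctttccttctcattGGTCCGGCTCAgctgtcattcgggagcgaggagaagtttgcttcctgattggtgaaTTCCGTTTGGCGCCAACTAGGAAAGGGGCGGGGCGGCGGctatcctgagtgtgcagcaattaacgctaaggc
Of the 150 bases of each, Ccnb3 had 28 in footprints of both libraries, Ccnb1 50, Ccnb2 46, Cdk1 53 and Cdc25a 50.

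Short words known from cell cycle promoters were searched on both strands in the 300 bases of each promoter, with positions counted from 0 at the RefSeq start. CCAAT, the box of the factor NF-Y, was present in 7 of the 8 genes and in 38.7% of all promoters. It was not present in Ccnb3. In Ccnb1 it lay on the strand of the gene at positions -99 to -95 and -67 to -63, a spacing of 32 bp. In Ccnb2 it lay at -87 to -83, -54 to -50 and -21 to -17, with 33 bp from each to the next. In Cdk1 it lay on the other strand at -80 to -76 and -48 to -44, again 32 bp apart, and at -208 to -204. Pairs of CCAAT on 1 strand at 31 to 34 bp were found in 3 of the 8 genes, in 1.25% of all promoters and in 9.48% of those with at least 2 CCAAT words. A run of at least 2 such steps, as in Ccnb2, was found in 13 of the 16522 promoters. The spacing was looked at after the matches were seen. In each of these 3 genes the CCAAT farther upstream of the spaced boxes lay fully inside a footprint in both libraries. The next one lay partly so in Ccnb1 and Ccnb2 and, in replicate 1 alone, in Cdk1. The last box of Ccnb2, at -21 to -17, touched no footprint in either library.

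TTTGAA, the cell cycle genes homology region through which many mitotic genes are held silent in resting cells, was found in Ccnb2 and Cdk1, with 2 matches each, and in 15.6% of all promoters. None of these 4 matches touched a footprint in both libraries. The E2F words TTTCCCGC, TTTGGCGC, TTTGCCGC and TTTCGCGC, bound by factors that switch on genes of DNA synthesis, occurred in Cdk1, Cdk2 and Cdc25a and in 2.93% of all promoters. That of Cdc25a, TTTGGCGC at -67 to -60, lay fully inside a footprint in both libraries, as did 2 overlapping GC boxes beside it, although the peak of replicate 1 ended before it. Those of Cdk1 and Cdk2 touched no footprint. GGGCGG, the GC box, was found in 7 of the 8 genes and in 48.0% of all promoters. Cdk2 held 6 of them, as many as or more than which were found in 1.95% of promoters, and 4 of the 6 lay fully inside footprints in both libraries. The palindromic site of NRF1 and the CRE word TGACGTCA were found in none of the 8, and in 1.37% and 2.43% of all promoters.

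CAACNG and TAACNG, the core of sites of the MYB factors, which include the A-MYB of spermatocytes, were found in 5 of the 8 genes and in 46.9% of all promoters. Ccnb3 held 6 of them, and 0.0424% of promoters held as many or more. Numbers of words per promoter were looked at after the matches were seen, and this share is the smallest among all genes and words searched. Of its 6 matches, that at 10 to 15 lay fully inside a footprint in replicate 2 and partly in replicate 1, and that at 18 to 23 partly in both. The match at -10 to -5 touched a footprint in replicate 1 alone, and the others touched none. Ccna1 had 2, at -151 to -146 and -96 to -91, of which the first was under a footprint in replicate 2 alone. Over the 8 promoters, 26 of 53 matches to all words touched footprints in both libraries and 15 lay fully inside. Footprints of both libraries covered 20.2% of the bases of these promoters. The measures are unlike, because a word of several bases counts as touching by 1 shared base, in each library on its own. Whether words lie in footprints more often than other bases was not tested. Among the different words no matches overlapped each other. A match describes letters and does not show that a factor was bound.

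At least 1 footprint lay in the promoter peaks of all 10 genes in both libraries. The same held for 14742 of the 21911 protein-coding genes (67.3%), all of them among the 15057 genes with a promoter peak in both libraries. Nearly all open genes thus had a footprint, and these 10 genes do not stand out by it. The highest peaks held 46 footprints in replicate 1 and 52 in replicate 2, of which 39 and 43 overlapped one of the other library. The median over open genes was 4 and 5 per highest peak. Cdk2 had 5 and 8, Cdc25c 5 and 7, and Ccna2 and Cdk1 5 in each library. Ccna2 had the most bases in footprints of both libraries, 99, followed by Cdk1 with 86 and Cdk2 with 74. Cdc25b had 22 and Ccna1 26, the fewest, and Ccnb3 had 35. The 3 genes with the lowest peak values had the fewest such bases, but Cdc25a, with the highest value, came next with 42. That number depends on the peak limits, as the Cdc25a peak of replicate 1 ended at -99. In the fixed RefSeq promoter windows Cdc25a had 96 such bases, the most of the genes with a sequence, and Cdk1 95. Cdc25b with 22, Ccnb3 with 35 and Ccna1 with 39 had the fewest there too. Fewer cuts also leave less power to call a footprint, and its part in these orders was not tested.

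**Figure D4:**
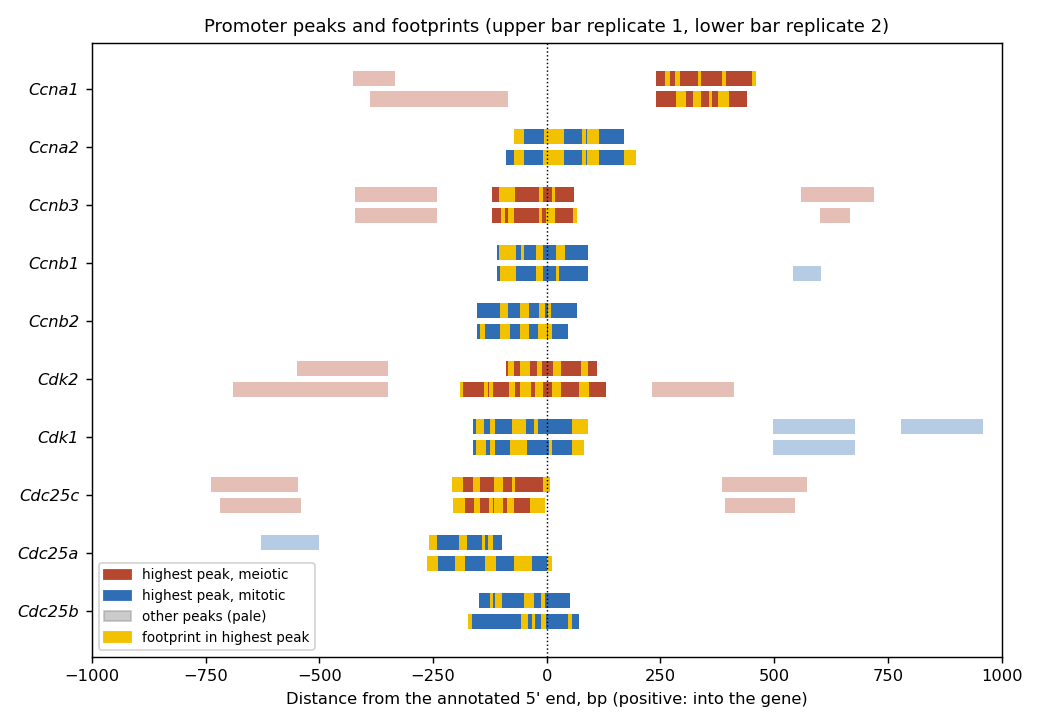
Bars span the promoter peaks of each gene in bp from the annotated 5' end, red for meiotic and blue for mitotic paralogs, with the highest peak in full colour, other peaks pale and footprints of the highest peak in yellow. The Ccna1 peak lies at 241 to 460 in replicate 1, that of Cdc25c wholly before its 5' end, and the others at or near it; peaks beyond 1000 bp are not drawn.

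Distal peaks, at most 50 kb from a start but in no gene's promoter window, numbered 44 in replicate 1 and 54 in replicate 2 over the 10 genes (49 ± 7.1, SD, n = 2). The median per gene was 4 and 5, beside 4 and 4 over all genes and 5 and 6 over genes open in both libraries. Of the 10 genes, 9 had at least 1 in both libraries, beside 83.9% of all genes. They were unevenly spread. Cdc25a had 11 in both libraries, Cdk1 7 and 11, Cdc25b 7 and 9, Ccna1 7 and 6, Cdk2 4 and 6, and Cdc25c 4 and 4. The B cyclins and Ccna2 had few, with 1 and 2 at Ccnb3, 1 and 3 at Ccna2, 1 and 2 at Ccnb1 and 1 and 0 at Ccnb2. A high promoter value therefore went with many distal peaks at Cdc25a and with few at Ccna2. For 28 of these peaks in replicate 1 and 34 in replicate 2 the nearest start was that of another gene, and which gene they act on was not measured.

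Ccna1 and Cdc25b, both with low promoter values, had more distal peaks than the median of all genes in both libraries. Beside genes open in both libraries, with medians of 5 and 6, Ccna1 with 6 in replicate 2 was no higher. None of the distal peaks of Cdc25b had Cdc25b as the gene with the nearest start. Of those of Ccna1, 6 were found in both libraries, and no other protein-coding gene starts within 50 kb of its own starts. The peak at 24.8 kb upstream had 0.968 in replicate 1 and 0.638 in replicate 2, and that at 50.1 kb upstream, nearer to Spg20, had 0.946 and 1.60, the last above the value of the promoter itself. The midpoint of this farther peak lies beyond 50 kb, and only its near end is within reach. At Cdc25b the highest distal peak, 12.0 kb downstream and nearest to Ap5s1, had 2.47 and 3.01, above its promoter value in both libraries. At Cdc25a a peak 13.0 kb upstream had 2.73 and 2.05, and one 29.3 kb downstream, nearest to Map4, had 1.83 and 2.68, all far below its promoter. At Cdk1 a peak 21.3 kb downstream, past the end of the gene, had 1.91 and 1.57. The strongest around Cdk2, 35.6 kb downstream near Suox, had 3.31 and 2.37, and a weaker one inside the gene, overlapping an exon, had 0.914 and 1.12. At Cdc25c the highest, 27.9 kb upstream near Kdm3b, had 1.25 and 1.33.

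**Figure D5:**
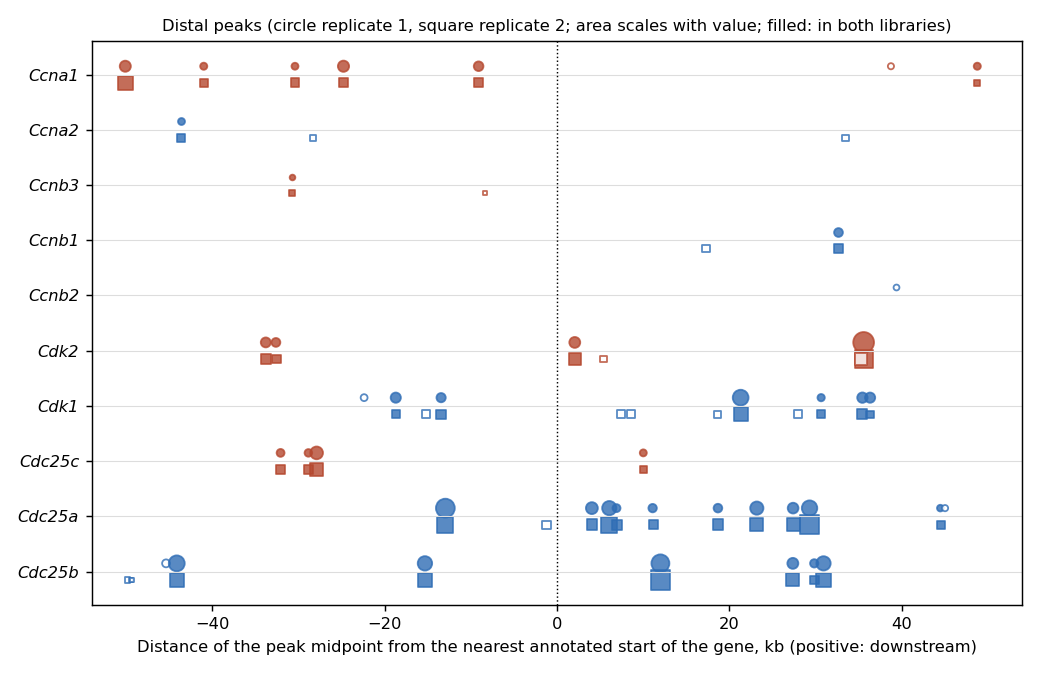
Distal peaks of each gene by distance in kb from its nearest annotated start, circles for replicate 1 and squares for replicate 2, with area in proportion to the peak value and filled symbols for peaks found in both libraries. Cdc25a, Cdk1, Cdc25b and Ccna1 have many, and Ccna2 and the B cyclins have 3 or fewer per library.

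The other genes of the division machinery formed a list of 45, of which 44 were matched by symbol (Speedya was not). Of these, 42 had a promoter peak in both libraries, none in a single one and 2 in neither, a share of 95.5%, beside 68.7% of all genes. Their median promoter value was 6.35 in replicate 1 and 5.82 in replicate 2. The highest was at Fzr1, an activator of the ubiquitin ligase that destroys mitotic cyclins, with 29.2 and 30.0, followed by Cdkn2d, an inhibitor of the D-type cyclin kinases, with 23.3 and 25.5. Hspa2, a chaperone of spermatocytes that helps Cdk1 join its cyclin, had 16.4 and 19.4, Ccne1, the usual partner of Cdk2 in somatic cells, 18.3 and 14.3, and Wee1, the kinase that CDC25 opposes, 15.9 and 14.3. The lowest open ones were Fbxo43, an inhibitor of cyclin destruction best known from the egg, with 1.60 and 1.44, Ccnd2 with 1.31 and 1.83, and Ccnd1 with 1.76 and 1.50. The D cyclins start the division cycle in response to growth signals. Wee2, the oocyte relative of Wee1, and Aurkc, a meiotic Aurora kinase, had no promoter peak in either library.

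In promoter value the nearest gene of this list, by the distance of the log2 values over the 2 libraries, was E2f1 for Cdc25c (10.1 in each library), Mad2l1 for Cdk1 (10.6 and 11.7) and Fbxo5 for Ccna2 (13.2 and 13.7). It was Cks2 for Cdc25a, Lin9 for Ccnb1 and Cdk2, Ccnh for Ccnb2, Fbxo43 for Ccnb3, Ccnd2 for Ccna1 and Ccnd1 for Cdc25b. These are likenesses of level over 2 libraries of 1 group and not of a pattern across conditions.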

How the data were processed

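DNase-seq libraries of 14-day mouse testis were analysed from the deposited files. Per the deposited text descriptions, each library has 2 peak lists, footprints and a track of the FDR of the cut rate, on mm10, made from its own alignments without pooling. No source used here names aligner, callers or versions. Column 7 of the peak lists is a signal set by the authors. The p-value column of the deposited footprints holds 0.01 throughout, so only positions were used. The deposited FDR track holds q-values below 0.05.

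From these, promoter values (highest longer-list peak overlapping by at least 1 bp a window of 1000 bp on each side of any start), distal peaks and footprints were computed with Python 3.11.15 and numpy 2.4.6 on GENCODE M21, keeping 1 gene per symbol. Absence means no listed peak. Percentiles split ties. The interval lookup was tested on simulated data. Members, pairs, lists and motifs were chosen with earlier results of these data known. All members were named; of the cell cycle list, the 5 highest, the 3 lowest open and those without a peak. Sequence of Ccna2 and Cdc25c was not analysed here.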

Additional observations from a re-analysis of the deposited data

How the results depend on the processing

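With windows of 500 or 2500 bp, the 5' end alone, the shorter peak list, peaks at or above the median value of their library, peak midpoints or either library alone, 10 genes kept a promoter peak, 1 of 6 pairs had the meiotic gene higher, and 41 or 42 of the 44 other cell cycle genes were open. Leaving out shared peaks removed Cdk2 and Cdc25b, whose values became 0, and kept 8 genes. By percentile rank the log2 ratios shrank, to -1.64 for Ccna1 over Ccna2 and 1.29 for Cdc25c over Cdc25b, with no sign reversed. The mean number of distal peaks, 49, was 20.5 within 25 kb and 99.5 within 100 kb. It was 33.5 with the shorter peak list and 31.5 with the stronger peaks, as fewer peaks are then counted. With a library left out it was 44 to 54. Footprints in promoter peaks, 66 on average, were 57 to 75 with a library left out and 55.5 to 70 elsewhere. No paired analysis was possible because there is a single group. Depth in reads is unknown, so counting error could not be given, and with 2 libraries each SD is itself uncertain.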
